A study of Mus musculus with 5 samples.

Results

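The subcutaneous CD26 against CD142 comparison sets 2 of the 5 libraries of the series against each other, both from adipose stem cells of subcutaneous fat (SAT). They were chosen by library name, the heading under which each library's counts were deposited. The first, numbered 2, is named for CD26 and the second, numbered 1, for CD142. GEO's sample titles and cell type labels give the opposite gates: the CD26-named library is titled CD26-CD142+, and the CD142-named library is titled CD26+CD142-. Every direction below is by library name, and by title each would be inverted. All libraries came from wild-type mice on a chow diet, 30 mice aged 12 to 14 weeks in all, whose stromal cells were depleted of CD31+ and CD45+ cells and sorted on CD26 and CD142. Poly(A) RNA of each sorted population was sequenced. The other 3 libraries are from visceral fat (VAT): a pair named and titled for CD26-CD142+ cells, numbered 1 and 2, and 1 of CD26+CD142+ cells, numbered 2. The labels do not say whether libraries came from separate pools of mice, and each SAT gate has 1 library. No test was therefore possible in SAT, and the VAT pair is set beside counts, lists and the leading genes as the spread between libraries of 1 gate.

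CD26 is dipeptidyl peptidase 4, a surface enzyme encoded by Dpp4, and marks interstitial progenitors that lie in the connective tissue sheath around fat and serve as a source of more committed cells. The F3 gene encodes CD142, better known as tissue factor, the receptor that starts blood coagulation. In fat CD142 marks progenitors called Aregs, reported to restrain the adipogenesis of their neighbours, and it is also found on other stromal cells beyond the interstitial population. Committed preadipocytes carry the adipogenic receptor PPARG and genes of lipid handling.

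The sort genes went with the library names and against the titles. Dpp4 (ENSMUSG00000035000, at 62330073 to 62412231 of chromosome 2 in mm10) had 999 CPM (985 to 1012) in the CD26-named library, in CPM, the count scaled to library size by the TMM method, and 6.59 CPM (5.59 to 7.73) in the CD142-named library, with exact 95% counting intervals in brackets here and below. It was 151-fold higher [129 to 179] in the CD26-named library. F3 (ENSMUSG00000028128, at 121723537 to 121735048 of chromosome 3 in mm10) was at 5.28 CPM (4.37 to 6.32) and 619.9 CPM (609.8 to 630.1) in the same order, 117-fold lower [98.0 to 142]. The CD26-named library was the high one for Dpp4 and the low one for F3, with intervals far apart in both. In the VAT pair, Dpp4 was at 5.12 and 6.55 CPM and F3 at 377 and 240.3 CPM. The markers that accompany each sort gene went the same way. Pi16, a secreted protein of interstitial progenitors, was at 6539.8 CPM (6506 to 6573) against 64.3 CPM (61.0 to 67.6), and Mgp, the matrix calcification inhibitor, and Clec11a, a secreted lectin growth factor, were at 3.67 and 7.83 CPM against 689.6 and 494 CPM. The genes of the excluded CD31 (Pecam1, 7.20 against 6.38 CPM) and CD45 (Ptprc, 0.626 against 0.260 CPM) were low on both sides.

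RefSeq promoters of these marker genes (build GRCm38.p6, 250 bases before to 50 after the start, read along the gene) are shown because they belong to the sort genes and their companion markers. Capitals mark the letters of a TATA box (TATAAA), a GC box (GGGCGG), an AP-1 motif (TGANTCA) or a TEAD motif (GGAATG), searched on both strands.
Dpp4 (chr2:62412182-62412481, minus strand): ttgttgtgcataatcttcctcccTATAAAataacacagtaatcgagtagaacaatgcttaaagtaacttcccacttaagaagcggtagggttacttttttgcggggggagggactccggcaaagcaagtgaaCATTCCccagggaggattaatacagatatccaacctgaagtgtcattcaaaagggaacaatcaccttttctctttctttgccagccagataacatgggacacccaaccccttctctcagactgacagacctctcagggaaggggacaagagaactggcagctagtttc
Pi16 (chr17:29318632-29318931, plus strand): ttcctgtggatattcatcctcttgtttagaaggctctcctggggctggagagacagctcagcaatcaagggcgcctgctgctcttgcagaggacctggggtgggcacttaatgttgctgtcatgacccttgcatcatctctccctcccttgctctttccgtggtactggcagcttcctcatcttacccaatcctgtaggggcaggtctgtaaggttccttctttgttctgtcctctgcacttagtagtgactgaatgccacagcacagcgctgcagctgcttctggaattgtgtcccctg
F3 (chr3:121723287-121723586, plus strand): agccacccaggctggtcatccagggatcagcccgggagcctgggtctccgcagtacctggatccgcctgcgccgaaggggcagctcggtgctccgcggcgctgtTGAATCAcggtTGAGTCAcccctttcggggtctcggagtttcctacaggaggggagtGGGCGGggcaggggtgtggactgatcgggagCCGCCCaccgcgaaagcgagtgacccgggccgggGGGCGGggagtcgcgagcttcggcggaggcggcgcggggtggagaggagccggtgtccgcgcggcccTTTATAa
Clec11a (chr7:44306910-44307209, minus strand): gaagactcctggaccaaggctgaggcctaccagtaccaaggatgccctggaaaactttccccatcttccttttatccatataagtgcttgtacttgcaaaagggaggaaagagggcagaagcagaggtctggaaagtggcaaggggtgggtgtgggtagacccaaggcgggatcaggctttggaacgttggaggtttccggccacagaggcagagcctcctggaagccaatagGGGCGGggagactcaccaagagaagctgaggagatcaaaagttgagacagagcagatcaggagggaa
The F3 window holds 6 matches, to the AP-1, GC box and TATA letters, and the Dpp4 window 2, to the TATA and TEAD letters. The TATA letters of F3 are on the reverse strand at the downstream end of the window, after the start. Those of Dpp4 lie near its upstream end. A match is to letters at any place in the window, and its function was not tested. The Clec11a window holds 1, a GC box, and in the Pi16 window these letters were not found. Of the 32851 promoters in the RefSeq table, 7.81% hold the AP-1 letters, 13.6% the TATA letters, 35.7% the GC box letters and 14.7% the TEAD letters. Among genes at least 2-fold apart, as counted below, a promoter was matched for 801 genes higher and 816 genes lower in the CD26-named library, and the AP-1 letters stood in 5.74% and 6.25% of them, the TATA letters in 6.99% and 10.4%. The GC box letters stood in 69.5% and 64.7% and the TEAD letters in 11.9% and 12.4%. Over all 9977 measured genes with a promoter, the shares were 4.60% for AP-1, 6.96% for TATA, 65.3% for the GC box and 11.9% for TEAD.

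Total counts were 22259327 in the CD26-named library and 25357403 in the CD142-named library, and between 21706345 and 23021617 in VAT. The libraries differ in more than the gate. Mitochondrially encoded genes took 0.554% of counts in the CD26-named library and 2.83% in the CD142-named library, and 0.633% and 4.33% in VAT libraries 2 and 1 of the CD142 gate. In both depots the libraries numbered 2 were the low ones, the VAT CD26+CD142+ library (0.620%) included. Gene length moved with the number in the same way. In the longest of 10 bins of measured genes by length (median 12241 bases) the median log2 ratio was 0.50 in SAT and 0.53 for VAT library 2 over 1, and in the shortest bin (median 930 bases) it was -0.55 and -0.45. Between the 2 VAT libraries numbered 2, whose gates differ, the same medians were -0.01 and 0.01. In SAT the gate and the number cannot be told apart from these 2 libraries alone.

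**Figure D1:**
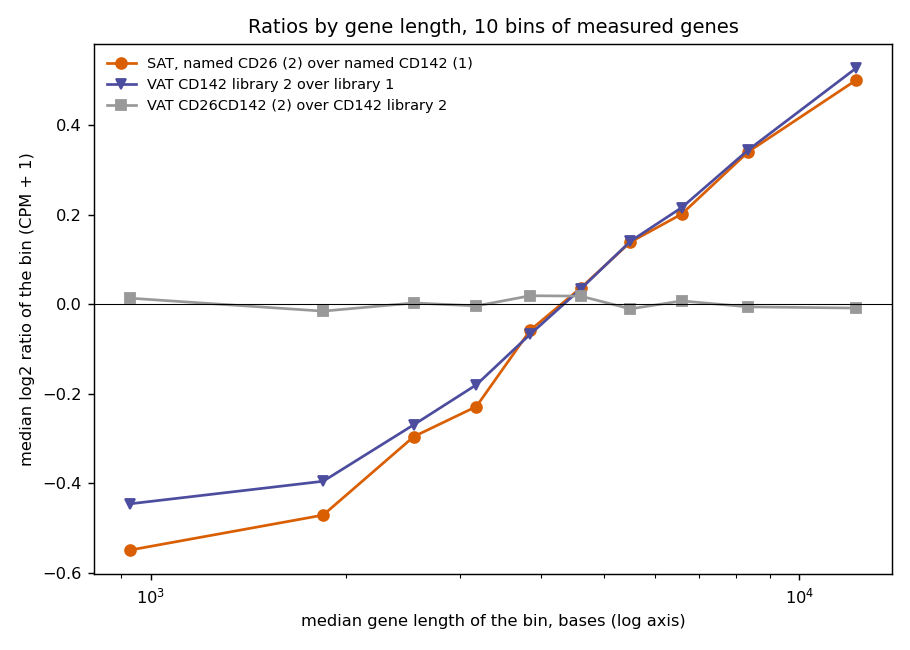
Median log2 ratio (CPM + 1) in 10 bins of measured genes by gene length (log axis, bases). SAT (circles) and the VAT pair of 1 gate (triangles), both library 2 over library 1, run together from below -0.4 to about 0.5, while the VAT gates compared between libraries numbered 2 (squares) stay near 0.

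Over all genes, the SAT libraries stood further apart than the VAT pair. A gene was counted as apart when its log2 ratio, with 1 CPM added on each side, was at least 2-fold and the higher library had at least 10 CPM. Of 13561 measured genes, 1054 were higher in the CD26-named library (7.77%) and 1124 lower (8.29%), 2178 in all (16.1%). In the VAT pair 625 genes were higher in library 2 (4.61%) and 289 lower (2.13%), 914 in all (6.74%). Large ratios set the comparisons apart most: at least 16-fold, 52 genes were higher and 73 lower in SAT, and 0 and 0 in the VAT pair. At least 4-fold, the counts were 294 and 391 in SAT and 51 and 34 in the VAT pair. The middle of the distribution was closer: the median size of the log2 ratio was 0.52 in SAT and 0.39 in the VAT pair. Across these genes the SAT ratio went with the VAT pair ratio (Pearson r = 0.49, Spearman rho = 0.58, a description across genes, which share depth and length). Of the genes higher in SAT, 325 were also at least 2-fold higher in VAT library 2 than in library 1, which is 30.8% of the former and 52.0% of the latter, and 6 went the other way. Of those lower in SAT, 179 were also lower in VAT library 2 (15.9% and 61.9%), and 15 went the other way. With the VAT pair under 2-fold apart, 704 genes were higher in SAT (5.19%) and 901 lower (6.64%). The share of genes apart that were higher was 48.4%, and 60.7% when libraries were scaled by their totals alone.

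**Figure D2:**
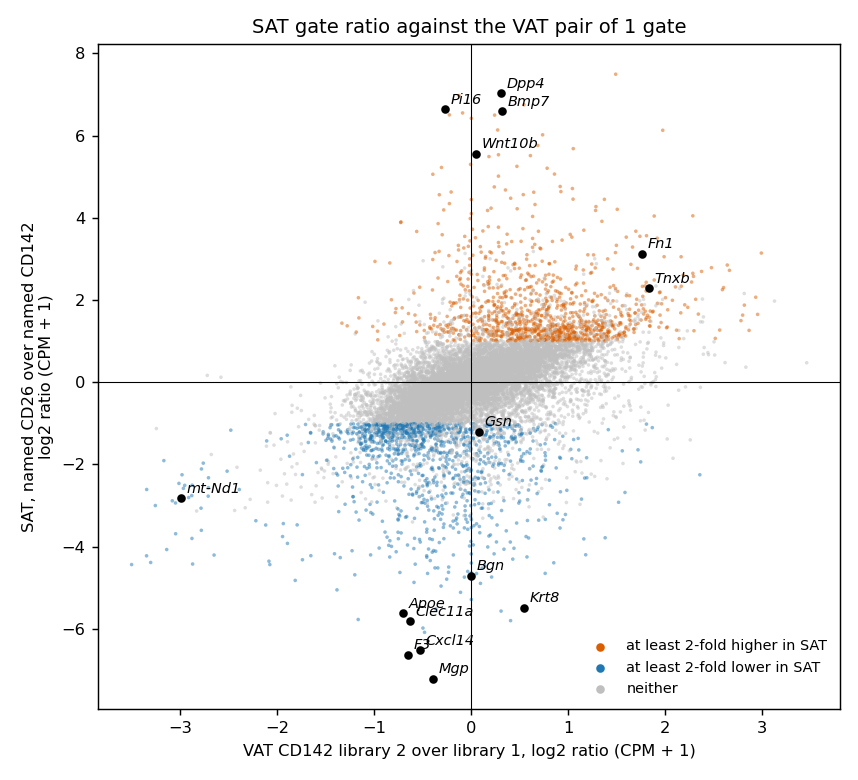
Each point is 1 of 13561 measured genes: log2 ratio of the CD26-named over the CD142-named SAT library (vertical) against VAT CD142 library 2 over library 1 (horizontal), both with 1 CPM added. Dpp4, Pi16, Bmp7, Mgp and F3 lie far from 0 on the vertical axis and within 1 of it on the horizontal axis, whereas mt-Nd1, Fn1 and Tnxb lie far out on both.

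Interstitial progenitor genes were higher in the CD26-named library almost throughout. Of 20 listed markers, 18 were at least 2-fold higher and 0 lower (median log2 ratio 3.56, against 0.18 in the VAT pair). Of all measured genes, 7.77% were higher and 8.29% lower. The 18 include the sort gene Dpp4. This list and the Areg and preadipocyte lists below were written with earlier results of these data known, so their counts are description only. Bmp7, a bone morphogenetic protein, was at 95.7 CPM against 0, and so at least 736-fold higher when the empty side is set at 3 counts. The Wnt modulator gene Dact2 was at 195.5 against 2.82 CPM (69.3-fold higher [54.3 to 90.0]). Anxa3, an annexin of these cells, was at 939.8 against 19.9 CPM (47.2-fold higher [43.0 to 51.9]), with 50.4 and 57.3 CPM in the VAT pair. The complement shield Cd55 was at 503 against 37.2 CPM, the guidance ligand Sema3c at 518 against 86.9 CPM and the ligand Wnt2 at 148 against 33.5 CPM. Ugdh and Has1, which make the sugar precursor and the chain of hyaluronan, were at 2455 against 211 CPM and 436 against 59.5 CPM. The remaining members ran from 1.05 (Pcolce2) to 5.51 (Limch1) on the log2 scale. Tppp3 (395 against 501 CPM) and Ly6c1 (1453 against 1053 CPM) were under 2-fold apart. The VAT pair was itself at least 2-fold apart in 4 of the 20, among them fibronectin, Fn1, which was at 1343 and 4547 CPM there and 13663 against 1562 CPM in SAT, and Has1 and Ugdh. With the VAT pair's ratio subtracted, the median of the list was 3.10. In bulk libraries, fewer cells of a type and less RNA per cell cannot be told apart.

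Areg genes were the mirror of this. Of 12, 10 were lower in the CD26-named library and 1 higher (median log2 ratio -3.45, against -0.41 in the VAT pair). The 10 include the sort gene F3. Of all measured genes, 8.29% were lower and 7.77% higher. Mgp (ENSMUSG00000030218, at 136872435 to 136875823 of chromosome 6 in mm10) was at 3.67 CPM (2.92 to 4.55) against 689.6 CPM (679 to 700.4), 188-fold lower [151 to 237], while the VAT pair was at 817 and 621 CPM. Clec11a was 63.1-fold lower [54.3 to 73.6] and the VAT pair was at 48.4 and 30.9 CPM. The proteoglycan biglycan, Bgn, was at 102 against 2704 CPM, the flavin monooxygenase gene Fmo2 at 45.5 against 916 CPM, and the growth factor gene Gdf10 at 297 against 2528 CPM. The homeobox gene Meox2 was at 9.21 against 142 CPM, and it was low in all VAT libraries, at 6.395 and 4.49 CPM in the pair and 4.28 CPM in CD26+CD142+ cells. Cytoglobin, Cygb (116 against 897 CPM), the matrix gene Vit (32.0 against 249 CPM) and the lipid transporter gene Abcg1 (4.16 against 17.9 CPM) were lower too. Tiparp, a target of the aryl hydrocarbon receptor, was the member that was higher (135 against 55.9 CPM), and the protease gene Adamts15 was under 2-fold apart (116 against 229.8 CPM). The VAT pair was at least 2-fold apart in 0 of the 12.

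**Figure D3:**
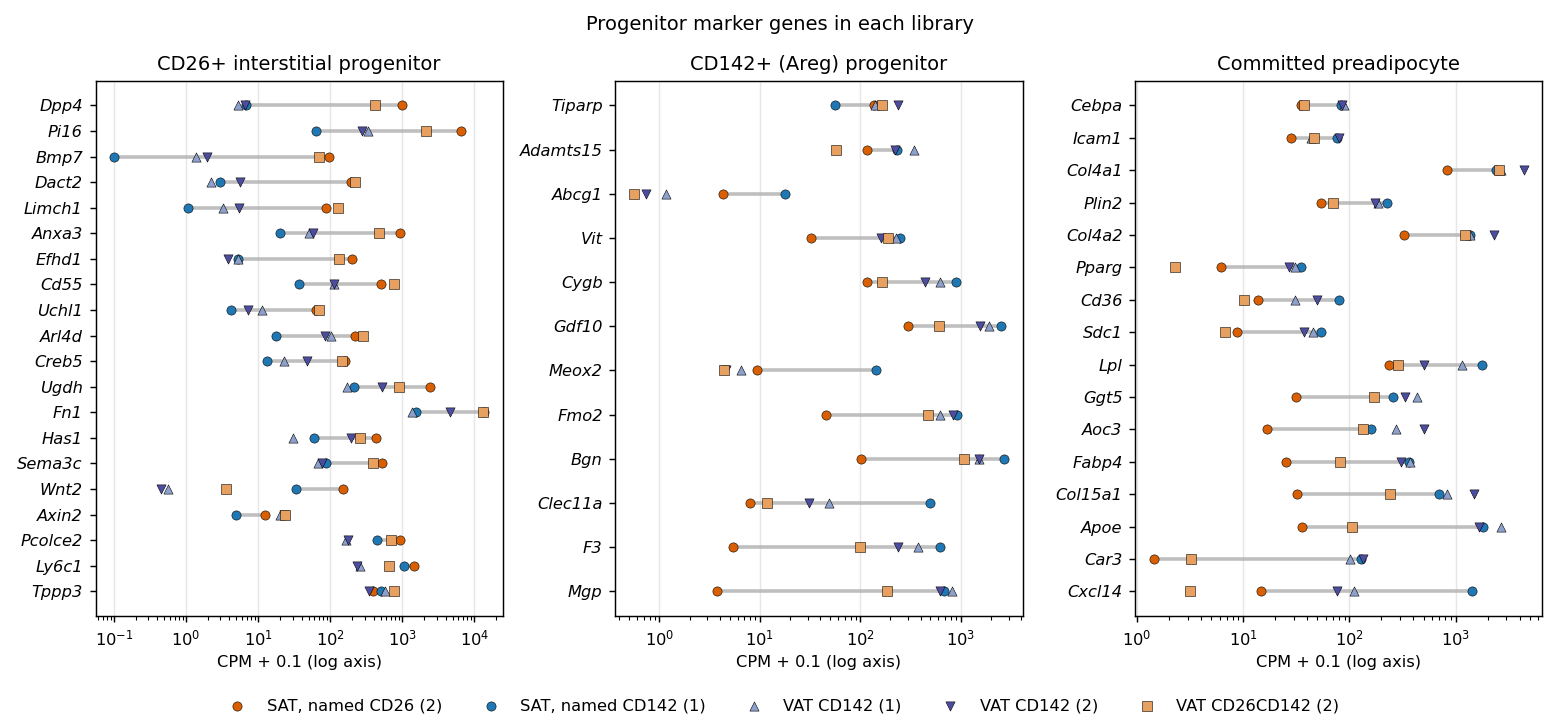
CPM plus 0.1 (log axis) of the measured genes of the interstitial, Areg and committed preadipocyte lists in each of the 5 libraries, 1 point a library, with a grey bar between the 2 SAT libraries. The CD26-named library (orange circles) lies right of the CD142-named library (blue circles) for 19 of 20 interstitial genes and left of it for all 16 preadipocyte genes.

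Committed preadipocyte genes were lower in the CD26-named library in all 16 of 16 cases (median log2 ratio -2.71, against -0.08 in the VAT pair), so the CD142-named library carried preadipocyte genes beside Areg genes. Of all measured genes, 8.29% were lower and 7.77% higher. The chemokine gene Cxcl14 was at 14.6 CPM (13.0 to 16.3) against 1425 CPM (1409 to 1440.0) (97.7-fold lower [87.6 to 109]), a level above that of any VAT library, where it was at 109.8 and 75.7 CPM in the pair and 3.08 CPM in CD26+CD142+ cells. The carbonic anhydrase gene Car3 was at 1.34 against 129 CPM and the VAT pair at 102 and 135 CPM. The lipoprotein gene Apoe was at 35.7 against 1794 CPM (50.3-fold lower [46.9 to 54.0]). Pparg was at 6.13 against 34.7 CPM and its partner factor Cebpa at 34.8 against 83.4 CPM. Fabp4, which carries fatty acids, was at 24.9 against 361 CPM, the lipase gene Lpl at 236 against 1777 CPM, the fatty acid receptor gene Cd36 at 13.6 against 79.7 CPM and the lipid droplet gene Plin2 at 53.9 against 226 CPM. Icam1, the adhesion receptor used to sort committed preadipocytes, was at 28.1 against 75.6 CPM, with 43.0 and 78.9 CPM in the VAT pair. In the list of lipid uptake, storage and lipolysis, which shares 5 genes with this one, 0 of 21 measured were at least 2-fold higher and 11 lower (median log2 ratio -1.87, against 0.09 in the VAT pair). The fatty acid synthesis genes Fasn (94.97 against 81.1 CPM), Scd1 (165 against 121 CPM) and Acaca (43.1 against 21.1 CPM) were under 2-fold apart with 1 CPM added.

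Adipogenic transcription factors lay near 0 as a list: 2 of 16 measured were at least 2-fold higher and 2 lower (median log2 ratio 0.01, against -0.03 in the VAT pair). The lower ones were Pparg and Cebpa. The higher ones were the early B cell factor genes Ebf1 (207 against 90.3 CPM) and Ebf2 (166 against 72.9 CPM), which act early in the adipocyte lineage. The early inducers Cebpb (259.9 against 268 CPM) and Cebpd (803 against 826 CPM) were nearly level. Among developmental factors of the fat depots, Tbx15, known from subcutaneous fat, was at 96.4 against 129 CPM and at 0.274 and 0.128 CPM in the VAT pair, and Shox2 at 29.5 against 53.9 CPM and 0.0457 and 0 CPM. The visceral factor gene Wt1 was at 0.0447 against 0 CPM, with 1 count or none, and at 113 and 154 CPM in the VAT pair. Gata6, another visceral factor gene, was at 35.0 against 37.4 CPM and at 68.5 and 86.5 CPM. Of these developmental factors 1 of 13 measured were at least 2-fold higher and 2 lower (median log2 ratio -0.39, against -0.06 in the VAT pair): Irx1 was higher (53.6 against 22.9 CPM) and Hoxc10 (22.5 against 56.0 CPM) and Lhx8 (1.70 against 10.8 CPM) were lower. These counts lie near the shares of all measured genes, 7.77% higher and 8.29% lower.

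Of 14 general mesenchymal genes, 1 was at least 2-fold higher and 3 lower, beside 7.77% and 8.29% of all measured genes. The other 10 were under 2-fold apart, among them the receptor gene Pdgfra (885 against 688 CPM), the stem cell antigen gene Ly6a (2023 against 2319 CPM) and Cd34 (1844 against 1375 CPM). The ecto-nucleotidase gene Nt5e was higher (60.2 against 26.5 CPM), and lumican, Lum (305 against 2677 CPM), Col3a1 and Pdgfrb (139.9 against 303 CPM) were lower (median log2 ratio -0.38, against -0.03 in the VAT pair). Per length, gelsolin, Gsn, an actin-severing protein, was the most abundant transcript of both libraries, at 10506 and 24254 CPM per kilobase. Gsn took 3.33% of counts in the CD26-named library (exact interval 3.32 to 3.34) and 6.96% in the CD142-named library (6.95 to 6.97).

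The 15 largest ratios on the CD26 side, among genes with the VAT pair under 2-fold apart, were led by Dpp4 with 1 CPM added, although genes at or near 0 in the CD142-named library had larger folds without it. Mrgprg, a gene of the Mas-related receptor family, was at 125 CPM against 0 (at least 959.5-fold higher). The integrin gene Itgb7 was at 130.2 CPM (125 to 135) against 0.217 CPM (0.0704 to 0.506), and it was low in VAT also in CD26+CD142+ cells (1.497 CPM). After Pi16 and Bmp7 came Edn1, the gene of the vasoconstrictor endothelin (272 against 1.91 CPM, 143-fold higher [106 to 196]). Dmkn (106 against 0.173 CPM) and Sbsn (349 against 2.86 CPM), neighbouring genes of secreted proteins best known from the epidermis, were both higher, and so was Krtdap, named here after its values were seen, at the same locus of chromosome 7 (36.5 CPM against 0), where Sbsn lies at 30751471 to 30756134 and Dmkn at 30763756 to 30781063. Akr1c18, a progesterone-inactivating enzyme gene, was at 111 against 0.304 CPM and at or near 0 in VAT (0 and 0 CPM, and 1.12 CPM in CD26+CD142+ cells). It belongs to a cluster of similar genes whose reads can be hard to assign. Chst1, a sulfotransferase gene, was at 115 against 0.651 CPM, and Islr2, an immunoglobulin-domain gene that overlaps Islr on the same strand, at 213 against 2.30 CPM. Aldh1a3, which makes retinoic acid, was at 618 CPM (608 to 628) against 10.4 CPM (9.13 to 11.8), although the VAT pair of the CD142 gate carried 486 and 782 CPM. Wnt10b, a Wnt ligand that blocks adipogenesis, was at 105.4 against 1.26 CPM (83.8-fold higher [58.2 to 125]). Dhrs9, another retinoid enzyme gene, was at 47.4 against 0.0434 CPM, which is 1 count in the CD142-named library, and Limch1, an actomyosin regulator gene, at 88.3 against 0.954 CPM.

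The 15 largest ratios on the CD142 side, chosen in the same way, began with Mgp, F3 and Cxcl14. The tetraspanin gene Tspan11 was at 1.97 CPM (1.43 to 2.64) against 200.3 CPM (194.6 to 206) (102-fold lower [75.7 to 140.3]), and at 15.0 and 10.4 CPM in the VAT pair. Fbln7, a fibulin gene, was at 1.83 against 133 CPM, Cpe, the gene of a peptide hormone processing enzyme, at 7.38 against 289 CPM, and the microfibril gene Mfap4 at 1.57 against 78.8 CPM. Arhgdib, a GTPase regulator gene best known from blood cells, was at 1.48 against 71.3 CPM. In the CD142-named library Ptprc was at 0.260 CPM, while the macrophage markers Csf1r and Cd68 were higher there, with values given below. The part of blood cells in the Arhgdib ratio was not tested. Clec11a, Car3 and Apoe stood among these genes, with the values given above. The simple epithelial keratin genes Krt18 (0.0447 against 46.8 CPM) and Krt8 (0.0447 against 45.9 CPM) had 1 count each in the CD26-named library. The carboxylesterase gene Ces2b was at 0 against 38.0 CPM (at least 283-fold lower) and at 0 in all 3 VAT libraries. It has close paralogs among which reads can be split.

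By difference in CPM, the 5 leading genes in each direction, among those at least 2-fold apart in SAT and under 2-fold apart in the VAT pair, were abundant, and most encode secreted proteins. On the CD26 side these were the complement component C3 (18072 against 5343 CPM, 3.38-fold higher [3.36 to 3.40]), Pi16, the basement membrane linker nidogen 1, Nid1 (4326 against 1357 CPM, 3.19-fold higher [3.15 to 3.23]), the growth factor binding protein gene Igfbp5 (4425 against 1784 CPM) and the angiotensin converting enzyme gene Ace (3595 against 1174 CPM). The VAT pair differed in the same direction, under 2-fold, for C3 (log2 ratio 0.69), Nid1 (0.35) and Ace (0.82). On the CD142 side they were Gsn (33167 against 76570.3 CPM, 2.31-fold lower [2.30 to 2.31]), Col3a1 (17908 against 41529 CPM), the collagen-binding gene Sparc (9114 against 25175 CPM), Igfbp7 (263 against 3053 CPM, 11.6-fold lower [11.3 to 11.9]) and Bgn. For Sparc the VAT pair differed by -0.87 on the log2 scale, the same direction as in SAT (-1.47).

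Matrix genes were apart in both directions in every class. Of all measured genes, 7.77% were higher and 8.29% lower, and in a list of 12 genes a count of 2 is little more than these shares. Of fibrillar and associated collagens, 2 of 12 measured were at least 2-fold higher and 2 lower (median log2 ratio -0.45, against 0.45 in the VAT pair). Col1a1 (7498 against 14846 CPM) and Col1a2 (14394 against 28133 CPM) stayed just under 2-fold lower, Col3a1 and Col6a2 (1521 against 3791 CPM) were lower, and the fibril-associated collagens Col12a1 (166 against 18.5 CPM) and Col14a1 (1265 against 390.4 CPM) were higher. Col12a1, a long gene, was also at least 2-fold apart in the VAT pair, in the same direction (7.90 and 19.5 CPM). In the basement membrane list 5 of 15 measured were at least 2-fold higher and 6 lower (median log2 ratio 0.29, against 0.74 in the VAT pair). Between the VAT libraries of 1 gate, 6 of the 15 were higher in library 2 and 0 lower. The collagens of the list were lower in SAT, with Col4a1 at 833 against 2397 CPM, Col4a2 at 327 against 1375 CPM and Col15a1 at 32.1 against 693 CPM, as was Sparcl1 (39.5 against 926 CPM). The laminin chains Lamc1 (2757 against 1053 CPM), Lama2 (1154 against 417 CPM) and Lama4 (710.5 against 255 CPM) were higher with Nid1 and Agrn (94.1 against 41.4 CPM). The VAT pair was at least 2-fold apart in the same direction for Lamc1 (1463 and 2932 CPM), Lama2 (693 and 1526 CPM) and Agrn (32.9 and 86.2 CPM). It was under 2-fold apart for Lama4 (358 and 472 CPM). For the type IV collagens the VAT pair went against the SAT direction, at 2673 and 4378 CPM for Col4a1.

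Of elastic fibre genes 6 of 17 measured were at least 2-fold higher and 3 lower (median log2 ratio -0.15, against 0.39 in the VAT pair). Fibrillin, Fbn1 (2200.3 against 404 CPM), Emilin2 (1465 against 238 CPM), the fibulin gene Efemp1 (1446 against 358 CPM), the crosslinking enzyme gene Loxl1 (1381 against 444 CPM), Ltbp1 (554 against 208 CPM) and Mfap5 (907 against 365 CPM) were higher, and elastin itself was under 2-fold apart (Eln, 317 against 453 CPM). Ltbp4 (134 against 288 CPM), Fbln1 (317 against 652 CPM) and Mfap4, with the values given above, were lower. For the long gene Fbn1 the VAT pair was at 531 and 884 CPM. For Ltbp4 the VAT pair went against the SAT direction, at 829 and 3022 CPM. Of small proteoglycans and hyaluronan genes 6 of 14 measured were at least 2-fold higher and 4 lower (median log2 ratio 0.37, against 0.25 in the VAT pair). Bgn, Lum, Podn (196 against 725 CPM) and Fmod, the fibromodulin gene (0.492 against 23.0 CPM), were lower, and the hyaluronan synthase gene Has2 (99.3 against 28.0 CPM) and its partner versican, Vcan (467 against 93.1 CPM), were higher with Has1, Ugdh, Ogn (1179.7 against 535 CPM) and Omd (44.6 against 15.5 CPM). The VAT pair differed in the same direction for Vcan (162 and 438 CPM). Decorin, Dcn, was abundant on both sides (9246 against 14029 CPM). Of matrix proteases and inhibitors 4 of 17 measured were at least 2-fold higher and 3 lower (median log2 ratio 0.05, against 0.12 in the VAT pair). Between the VAT libraries of 1 gate, 4 of the 17 were higher in library 2 and 0 lower. The inhibitor genes went opposite ways, with Timp3 higher (691 against 215 CPM; 205 and 661 CPM in the VAT pair) and Timp1 lower (44.3 against 164 CPM). The stromelysin gene Mmp3 was lower (583 against 1653 CPM) and Adamts5, an aggrecan-cleaving protease gene, higher (793 against 224 CPM). The matricellular list names 5 genes by both an older and a newer symbol, and 15 entries were measured, of which 3 were higher and 4 lower (median log2 ratio -0.94, against 0.20 in the VAT pair). Nov (54.4 against 3.56 CPM) and Thbs2 (643 against 174 CPM) were higher, and Thbs1 (35.7 against 139 CPM) and Spon1 (22.0 against 153 CPM) lower. The VAT pair went the other way for Thbs1, at 531 and 1786 CPM. Tenascin X, Tnxb, was higher at 4698 against 961 CPM, with the VAT pair at 1015 and 3609 CPM.

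**Figure D4:**
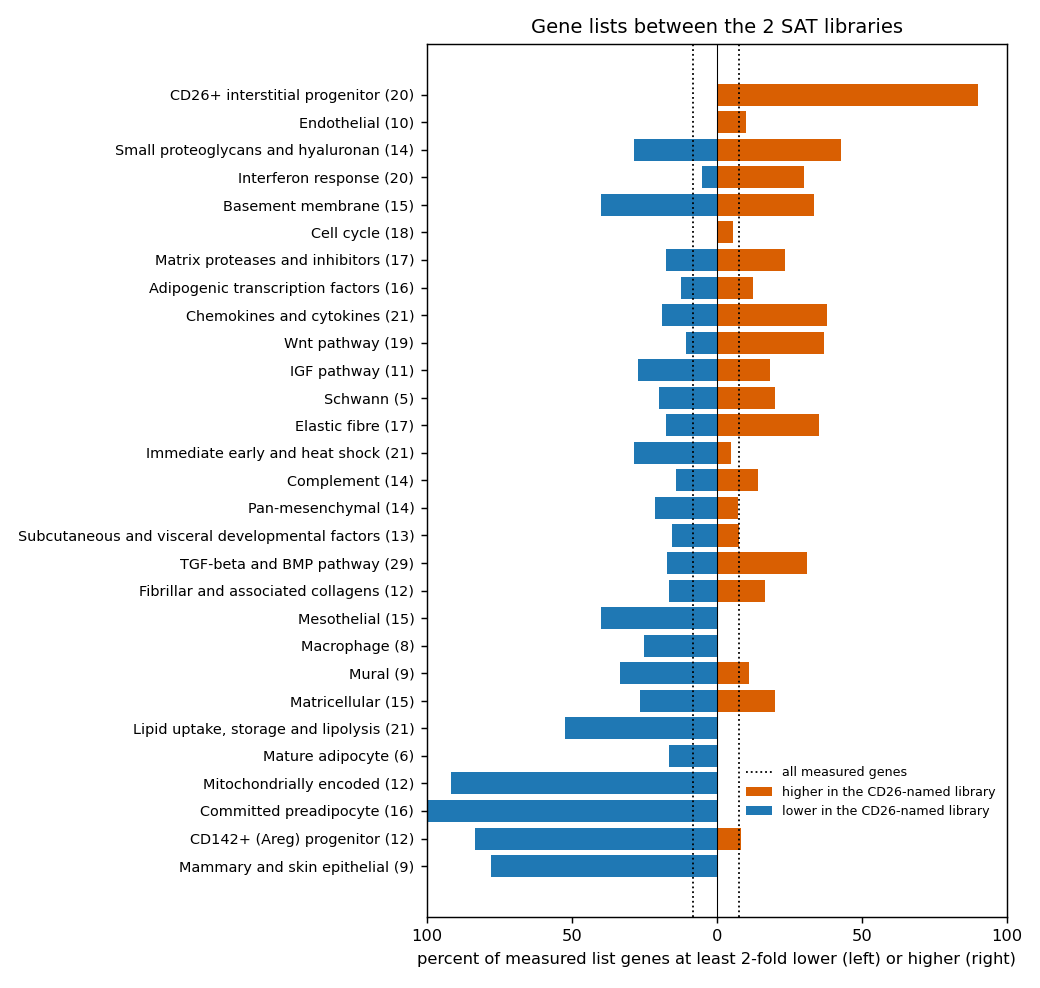
For each gene list with at least 5 measured genes (number in brackets), the percent at least 2-fold higher (right, orange) or lower (left, blue) in the CD26-named SAT library. Dotted lines give the 7.77% and 8.29% of all measured genes, and lists are ordered by their median log2 ratio.

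Signalling genes were apart in both directions, with several Wnt and BMP ligand genes on the CD26 side. The shares of all measured genes beside these lists are 7.77% higher and 8.29% lower. Of Wnt pathway genes 7 of 19 measured were at least 2-fold higher and 2 lower (median log2 ratio -0.01, against -0.12 in the VAT pair). The ligand genes Wnt10b, Wnt2, Wnt11 (94.9 against 25.7 CPM) and Wnt5b (24.0 against 5.46 CPM) were higher with the intracellular modulators Dact1 (228 against 97.0 CPM) and Dact2 and the target gene Axin2 (12.2 against 4.90 CPM). Rspo1, which amplifies Wnt signals (8.41 against 29.7 CPM), and Dkk3 (2.24 against 35.4 CPM) were lower. The secreted antagonists Sfrp1 (87.5 against 87.8 CPM), Sfrp2 (383 against 651 CPM) and Sfrp4 (343 against 440.1 CPM) were under 2-fold apart. Of TGF-beta and BMP genes 9 of 29 measured were at least 2-fold higher and 5 lower (median log2 ratio -0.39, against 0.24 in the VAT pair). The higher ligand genes were, beside Bmp7, Bmp2 (47.7 against 3.43 CPM), Bmp3 (25.9 against 0.564 CPM) and Bmp6 (36.0 CPM against 0, at least 276-fold higher). Bmp4 was at 35.2 against 46.5 CPM, and Gdf10, a relative of Bmp3, was lower, with the values given above. The protease gene Bmp1, which is no ligand, was at 1425 against 596 CPM. The TGF-beta receptor genes followed, with Tgfbr2 at 1818 against 361 CPM, Tgfbr3 at 725 against 314 CPM and Tgfbr1 at 46.2 against 20.99 CPM. The BMP target genes Id1 (9.75 against 45.1 CPM) and Id2 (59.2 against 241 CPM) were lower, although the VAT pair was also at least 2-fold apart for both, in the same direction (70.8 and 25.8 CPM for Id1). Tgfbi, a secreted matrix protein gene, was lower too (178 against 595 CPM). Of IGF pathway genes 2 of 11 measured were at least 2-fold higher and 3 lower (median log2 ratio -0.07, against -0.14 in the VAT pair), with the ligand gene Igf1 at 134 against 626 CPM, its receptor gene Igf1r at 39.2 against 18.3 CPM and the imprinted RNA H19 at 6.93 against 20.7 CPM.

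Chemokine and cytokine genes divided by member, with 8 of 21 higher and 4 lower (median log2 ratio 0.00, against 0.11 in the VAT pair). Beside Cxcl14, Cxcl12 (121 against 1768 CPM), which retains blood progenitors and lymphocytes, Cxcl16 (5.05 against 62.1 CPM) and Cxcl9 (5.90 against 31.9 CPM) were lower. The scavenging receptor genes Ackr3 (1764 against 285 CPM), which takes up CXCL12, and Ackr2 (165 against 6.03 CPM) were higher. Also higher were Cxcl13 (776 against 193 CPM), a B cell attractant, Ccl2 (279 against 85.6 CPM) and Ccl7 (271 against 108 CPM), monocyte attractants, the alarmin Il33 (189.6 against 63.2 CPM), Csf1 (933 against 464 CPM) and Lif (45.1 against 18.0 CPM). Of complement genes 2 of 14 measured were at least 2-fold higher and 2 lower (median log2 ratio -0.25, against -0.18 in the VAT pair), C3 and Cd55 being higher and C2 (41.9 against 429.9 CPM) among the lower. For complement both counts are little more than the shares of all measured genes, 7.77% higher and 8.29% lower. Of interferon response genes 6 of 20 measured were at least 2-fold higher and 1 lower. Their median log2 ratio was 0.33 in SAT and -0.58 in the VAT pair, on opposite sides of 0. Ifit2 (77.8 against 19.2 CPM), Rsad2 (20.0 against 3.73 CPM) and Irf7 (131 against 45.3 CPM) were higher and Ifi27 lower (126 against 360.3 CPM).

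The shares of all measured genes beside the counts of this paragraph are 7.77% higher and 8.29% lower. Of 18 measured cell cycle genes, 1 was higher, the kinase inhibitor gene Cdkn1c (56.1 against 15.5 CPM), and 0 lower (median log2 ratio 0.15, against -0.04 in the VAT pair). In a list this short such counts say little beside those shares. Mki67, a marker of cycling cells, was at 4.205 against 3.73 CPM. Of immediate early and heat shock genes, which tissue digestion can induce, 1 of 21 measured were at least 2-fold higher and 6 lower (median log2 ratio -0.18, against 0.16 in the VAT pair). Fos was at 2264 against 4600.0 CPM and 4962 and 2339.7 CPM in the VAT pair, and Jun at 1714 against 4202 CPM and 4504 and 3022 CPM. For Fos and Jun the libraries numbered 1 were the higher ones in both depots, Jun by under 2-fold in VAT. The list medians lay on opposite sides of 0. Fosl2, the member that was higher, was at 298 against 108 CPM and 137 and 536 CPM. Mitochondrially encoded genes were lower in 11 of 12 cases, with a median of -2.60 in SAT and -2.96 in the VAT pair. That difference is as large between libraries of 1 gate as between the SAT gates.

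Markers of other cell types differed in level by list. Of the mammary and skin epithelial list, 7 of 9 measured genes were lower in the CD26-named library (median log2 ratio -4.18, against 0.05 in the VAT pair). The CD142-named library held Epcam (25.3 CPM), the milk protein gene Csn3 (17.1 CPM), Cldn4 (18.9 CPM) and Krt19 (63.9 CPM), against 0.0447, 0, 0.0447 and 3.71 CPM. The summed level of the list was 323 CPM in the CD142-named library and 96.8 CPM in the CD26-named library, of which 87.3 CPM was Esr1, a gene that stroma also expresses, and 26.3 to 66.5 CPM in VAT. The part of epithelial RNA in the genes higher in the CD142-named library, such as Krt8 and Krt18, was not tested. Krt5 and Krt14, keratins of basal epithelium, were at 0 against 0.0867 CPM and 0 against 0 CPM. Of mesothelial markers 0 of 15 measured were at least 2-fold higher and 6 lower (median log2 ratio -0.48, against 0.54 in the VAT pair). The list's summed level was 3018 and 2418 CPM, of which 2961 and 2095 CPM were Igfbp6. The lower ones include all the keratins of the list, and its defining genes Msln (0 against 0 CPM) and Upk3b (0.403 against 0.0867 CPM) were near 0.

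Beside the 7.77% higher and 8.29% lower of all measured genes, counts of 1 or 2 in the short lists that follow say little. Of endothelial markers 1 of 10 measured were at least 2-fold higher and 0 lower (median log2 ratio 0.93, against -0.56 in the VAT pair). The list's summed level was 332 against 41.9 CPM. The member counted as higher was Tek (288 against 19.9 CPM), the angiopoietin receptor gene, with Cdh5 at 5.50 against 1.43 CPM and Pecam1 low on both sides, as given above. Of macrophage markers 0 of 8 measured were at least 2-fold higher and 2 lower (median log2 ratio -0.55, against -0.31 in the VAT pair), the 2 being Csf1r (1.52 against 13.8 CPM) and Cd68 (2.59 against 10.1 CPM), and Adgre1 was at 0.179 against 0.0867 CPM. None of 12 lymphocyte markers was measured, with a summed level of 0.671 and 1.86 CPM. Of mural markers 1 of 9 measured were at least 2-fold higher and 3 lower (median log2 ratio -0.57, against -0.20 in the VAT pair): the channel subunit genes Abcc9 (11.9 against 98.4 CPM) and Kcnj8 (5.82 against 13.7 CPM) and Notch3 (5.55 against 15.3 CPM) were lower and Des higher (14.3 against 3.21 CPM), while Rgs5 was at 4.03 against 2.34 CPM and Myh11 at 4.97 against 5.68 CPM. Of Schwann cell markers 1 of 5 measured were at least 2-fold higher and 1 lower (median log2 ratio -0.12, against -0.33 in the VAT pair), Mbp (50.7 against 10.1 CPM) and S100b (0.805 against 25.9 CPM), with Sox10 at 0 against 0.781 CPM. Of skeletal muscle markers 1 of 3 measured were at least 2-fold higher and 0 lower (median log2 ratio 0.60, against 0.81 in the VAT pair), and the higher one was Des. Of erythrocyte markers 0 of 2 measured were at least 2-fold higher and 0 lower (median log2 ratio -0.98, against -1.96 in the VAT pair). Of mature adipocyte markers 0 of 6 measured were at least 2-fold higher and 1 lower (median log2 ratio -2.09, against -0.59 in the VAT pair), Adipoq being at 0 against 5.33 CPM. The part of these cell types in the SAT ratios was not tested.

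The VAT libraries gave a readout of a CD26 gate that shares no library with SAT. There the CD26+ cells were CD26+CD142+, so this comparison is no replicate of the SAT one. Of VAT genes at least 2-fold apart from both CD142 libraries, 289 were higher (2.13%) and 289 lower (2.13%). Of the genes higher in SAT, 201 were higher in VAT, which is 19.1% of the SAT genes and 69.6% of the VAT genes, and 2 were lower. Of those lower in SAT, 189 were lower in VAT (16.8% and 65.4%) and 8 higher. Between the libraries numbered 2 alone, 351 VAT genes were higher (2.59%) and 434 lower (3.2%). In that comparison 756 of 1054 genes higher in SAT had a ratio above 0, and 843 of 1124 lower in SAT a ratio below 0, where 49.99% of all measured genes were above 0. Across all measured genes the SAT and VAT ratios had Pearson r = 0.47 and Spearman rho = 0.32 over libraries numbered 2. Against VAT library 1 they had r = 0.70 and rho = 0.74, a pair that differs in number as the SAT pair does.

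Members of the gene lists were set side by side in the CD26-named SAT library and the VAT CD26+CD142+ library. Depot and gate both differ between these 2 libraries, with F3 at 5.28 CPM in the former and 99.97 CPM in the latter. The parts of depot and gate in the values below cannot be told apart. Dpp4 was at 999 CPM in the CD26-named SAT library and 421 CPM in VAT CD26+CD142+ cells, Pi16 at 6539.8 and 2102 CPM, and Wnt2 at 148 and 3.53 CPM. Bmp6 was lower in the SAT library, at 36.0 against 143 CPM. Mgp and Bgn, at 3.67 and 102 CPM in the CD26-named SAT library, kept 184 and 1073 CPM in the VAT cells, which were gated as CD142+. Apoe (35.7 and 105.4 CPM) and Pparg (6.13 and 2.20 CPM) were low in both.

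**Figure D5:**
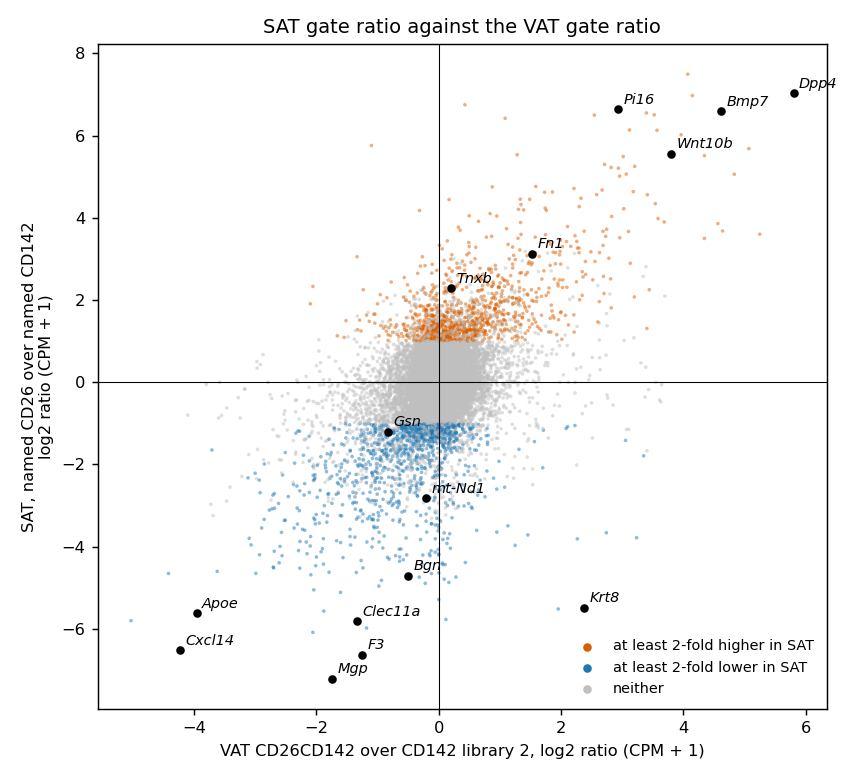
Log2 ratio of the CD26-named over the CD142-named SAT library (vertical) against VAT CD26CD142 over VAT CD142 library 2 (horizontal), with 1 CPM added, 1 point a gene. Dpp4, Bmp7, Wnt10b and Pi16 lie high on both axes, Cxcl14 and Apoe low on both, and Krt8 is low in SAT and high in VAT.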

How the data were processed

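RNA of sorted mouse fat progenitors was measured by RNA-seq in 5 libraries. The authors deposited raw read counts per Ensembl gene, not normalized, and in another unit the length of each gene in bases. The submitters' processing notes name featureCounts 1.5.0-p3 beside HISAT2 2.0.5, CASAVA and build mm10. The annotation release and the use of strand are not given in the sources used here. Groups were taken from library names. 

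Counts were scaled by TMM (edgeR 4.0.16, R 4.3.3) over all 5 libraries and are given as CPM. Genes with a mean of at least 1 CPM, 13561 of 54532, count as measured. Ratios are log2(CPM + 1), which understates low genes. Folds use CPM without the pseudocount, with exact conditional 95% intervals, or a floor of 3 counts per library for an empty side. Intervals are exact Poisson for CPM and exact Clopper-Pearson for shares (scipy 1.17.1), and cover counting error only. Alternatives changed the scaling, pseudocount, minimum, fold and VAT libraries used. With 1 library a gate no model was fitted and no p-value is given. Named genes are the 15 largest ratios and 5 largest CPM differences in each direction among protein-coding called genes with an established symbol and the VAT pair under 2-fold apart, and genes of the lists. Some of them are not reported here. Members and the 32 lists were chosen with earlier results of these data known.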

Additional observations from a re-analysis of the deposited data

Results flagged for a closer look

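In 10 genes the SAT libraries were at least 2-fold apart in one direction and VAT CD26+CD142+ cells were at least 2-fold apart from both VAT CD142 libraries in the other. The difference between depots was not tested, and these genes were chosen after their values were seen. By number they are few beside the 390 genes apart in the same direction. Only 2 were higher in the CD26-named SAT library: the neural adhesion gene Nrcam (log2 ratio 2.25, 35.6 against 6.68 CPM in SAT, and 9.48 against 24.8 and 23.7 CPM in VAT) and Plcxd2 (1.25, 20.5 against 8.07 CPM, and 11.6 against 24.5 and 29.5 CPM). The keratin gene Krt19 was lower in SAT (-3.78, 3.71 against 63.9 CPM) and higher in VAT (25.8 against 0.0914 and 1.84 CPM). It stands on the mesothelial and the epithelial list. In SAT it went with Epcam (0.0447 against 25.3 CPM) and Csn3 (0 against 17.1 CPM), and in VAT, where Epcam was at 0 CPM in CD26+CD142+ cells, with the mesothelial genes Msln (38.8 against 0.777 and 2.40 CPM) and Upk3b (97.1 against 0.320 and 8.39 CPM). The part of either cell type was not tested. The chaperone gene Clu (-1.42, 43.9 against 119 CPM, and 61.8 against 8.59 and 6.55 CPM in VAT) is also a mesothelial list gene. The chloride channel gene Ano1 was at -3.81 (0.626 against 21.8 CPM, and 24.0 against 1.32 and 4.19 CPM in VAT). The neurturin receptor gene Gfra2 was at -1.79 (2.42 against 10.8 CPM) and the receptor phosphatase gene Ptprf at -1.63 (4.03 against 14.6 CPM). The sodium pump gene Atp1b1 was at -1.08 (5.55 against 12.8 CPM) and the protease inhibitor gene Serpinb1a at -1.12 (16.1 against 36.3 CPM). The MHC gene H2-Q6 was at -1.05 (28.8 against 60.7 CPM), and its reads can be split with near-identical neighbours.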

How the results depend on the processing

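The count of genes higher in the CD26-named library went from 1054 to 551 when the log2 ratio of VAT library 2 over 1 was subtracted, while the lower genes went from 1124 to 762. With the length trend removed, an alternative chosen after seeing the data, they were 833 and 863. At 4-fold, 294 were higher and 391 lower, 85 were apart in the VAT pair and 106 went the same way in VAT. At 1.5-fold these were 2167, 2201, 3064 and 797. With no minimum level, 2020 were lower, 1505 apart in the VAT pair and 621 shared, and with 5 CPM added 598 were apart in the VAT pair. Without replicate 1 or replicate 2 of the VAT CD142 gate, 440 and 1056 genes went the same way in VAT, against 390 with both. Scaling moved the balance: 48.4% of the genes apart in SAT were higher with TMM, 60.7% with library totals (median of all genes 0.09) and 42.0% with upper quartile scaling (-0.11). The other alternatives kept each of these counts within 1.5 times. Over 49 named genes and 8 settings, no log2 ratio changed sign, and 116 of 392 values left the counting interval. All of these genes were picked as at least 2-fold apart in SAT, so the unchanged sign was largely fixed by the choice. Another pseudocount cannot turn a sign. Subtracting the VAT pair cannot turn it for genes picked with that pair under 2-fold apart. Leaving out a library was not possible within SAT. No paired analysis was possible because the SAT libraries carry different numbers. Depth limits genes near 0.130 CPM, the level of 3 counts.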

Other observations

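Some gene groups outside the lists above were examined after the data had been seen, as description only. Levels are for the CD26-named against the CD142-named library. Of 19 measured retinoid genes, 5 were at least 2-fold higher in the CD26-named library and 6 lower, beside 7.77% and 8.29% of all measured genes. The retinaldehyde dehydrogenase genes went opposite ways, with Aldh1a3 at 618 against 10.4 CPM and Aldh1a2 at 0.134 against 19.5 CPM (VAT pair 486 and 782 CPM and 29.2 and 34.6 CPM), while Aldh1a1 was level (223 against 203 CPM). The binding protein gene Rbp4 (6.397 against 87.2 CPM), the retinaldehyde reductase gene Dhrs3 (19.5 against 117 CPM) and the degrading enzyme gene Cyp26b1 (15.8 against 83.0 CPM) were on the CD142 side. Dhrs9, Adh7 (103 against 46.1 CPM), Rdh10 (33.4 against 16.05 CPM) and the receptor gene Rarb (10.2 against 1.86 CPM) were on the CD26 side. In the angiotensin system the substrate gene Agt (10.0 against 276 CPM) and the converting enzyme gene Ace (3595 against 1174 CPM) were highest in different libraries, and the receptor gene Agtr1a was under 2-fold apart (57.7 against 48.1 CPM).

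Of 28 measured semaphorin, plexin and neuropilin genes, 7 were higher and 3 lower. The shares of all measured genes beside these and the following counts are 7.77% higher and 8.29% lower, and a count of 1 in a short list says little. Sema3e was at 179.5 CPM against 0 (at least 1379.7-fold higher), and at 130.3 CPM in VAT CD26+CD142+ cells, but it was also over 2-fold apart in the VAT pair (1.78 and 6.80 CPM). Its receptor gene Plxnd1 was on the CD142 side (13.1 against 54.0 CPM). The neuropilin genes split, with Nrp1 at 50.01 against 132 CPM and Nrp2 at 14.0 against 3.43 CPM. Among 10 measured annexins, Anxa3, Anxa1 (1547 against 553 CPM) and Anxa8 (14.3 against 2.08 CPM) were higher and Anxa5 lower (128 against 557 CPM). Of 7 measured carboxylesterase genes 0 were higher and 3 lower, Ces2b, Ces2e (0.268 against 32.9 CPM) and Ces2g (74.0 against 324 CPM), which are close paralogs.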
